A study of Mus musculus with 60 samples.

Results

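The transcripts of the posterior HoxD cluster, Hoxd9 to Hoxd13, were followed in tailbuds of single mouse embryos. They were 5 of the 117135 transcripts listed, chosen by identifier: ENSMUST00000059272 listed as Hoxd9, ENSMUST00000061745 as Hoxd10, ENSMUST00000142312 as Hoxd11, ENSMUST00000001878 as Hoxd12 and ENSMUST00000001872 as Hoxd13. The tables at hand paired 0 of these identifiers with a symbol, so the symbols below are those of the list and were not checked. The list was made with values of these same libraries in view. Trends and genotype values below are therefore descriptions, and their adjusted p-values are no independent support.

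The series holds 60 samples, of which the 27 tailbud RNA libraries were used; 33 libraries made from embryonic stem cells were not used here. There were 4 wild-type embryos at each of 12, 13, 14 and 16 somites, and 2, 2, 2 and 5 mutants at the same stages. The design text gives the mutants as carrying the substitution K116R in JARID2, and the titles call them only mutant. The alleles carried, strain, sex, litter and batch of the embryos are not given in the sources used here. Each title names 1 embryo, so no library is described as a pool. Total RNA was sequenced.

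Hox genes encode homeodomain transcription factors that give the cells of the body axis their position. In mammals the genes of a cluster are switched on in sequence, those at the Hoxd1 end first and Hoxd13 last, as the axis grows from the tailbud and adds somites. Before that, the posterior genes are kept silent by Polycomb repressive complex 2 (PRC2), which methylates histone H3. JARID2 is an accessory subunit of PRC2, and the substituted lysine is one that PRC2 methylates.

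Libraries held between 20908470 and 27090684 estimated reads. Scaling factors by trimmed mean of M-values (TMM) ranged from 0.884 to 1.22, the highest in wild-type embryo 4 at 14 somites. Levels of 1 transcript are given in CPM, its reads per fixed number of library reads after this scaling, and levels of different transcripts are compared only in TPM, a relative abundance that is also scaled by transcript length. Mutant embryo 1 at 16 somites differed most from its group, with a median root mean square difference of 1.84 log2 CPM to the others, against at most 1.38 in any other embryo. Left out together, these 2 embryos changed no edgeR call on the 5 transcripts. No marker of tailbud or of other tissues could be read, because no transcript identifier was paired with a symbol.

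In RefSeq on GRCm38.p6 the genes lie on chromosome 2, strand +, with Hoxd13 first and Hoxd9 last. Hoxd13 spans chr2:74668225-74671603, Hoxd12 chr2:74675013-74677705, Hoxd11 chr2:74679558-74687016, Hoxd10 chr2:74684273-74695106 and Hoxd9 chr2:74697763-74700208. The annotated spans of Hoxd11 and Hoxd10 overlap. The transcripts are 2136 bases (Hoxd9), 1816 (Hoxd10), 1111 (Hoxd11), 2534 (Hoxd12) and 2483 bases (Hoxd13) long, each shorter than the span of the gene it is listed as. Estimated counts of Hoxd12 and Hoxd13 were whole numbers, within 0.01, in 27 of 27 embryos and those of Hoxd9 in 24. They were whole in 11 embryos for Hoxd10 and in 0 for Hoxd11, so reads of these transcripts were divided with others by estimation.

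CpG-dense promoters are the sites where PRC2 is known to act. The 250 bases before an annotated start are therefore given for the gene whose levels at 12 and 16 somites overlapped (Hoxd9). They are also given for 3 that were higher at 16 (Hoxd10, Hoxd12 and Hoxd13). They are RefSeq sequences on GRCm38.p6, strand +, 5′ to 3′, with each CpG in capitals. Hoxd11 has 2 annotated starts in this table, and the transcript could not be tied to either, so neither is printed. The Hoxd10 window lies inside the annotated span of the gene, chr2:74684273-74695106, and not before its first base. The Hoxd10 transcript was not tied to the start used here.
Hoxd9, chr2:74697513-74697762: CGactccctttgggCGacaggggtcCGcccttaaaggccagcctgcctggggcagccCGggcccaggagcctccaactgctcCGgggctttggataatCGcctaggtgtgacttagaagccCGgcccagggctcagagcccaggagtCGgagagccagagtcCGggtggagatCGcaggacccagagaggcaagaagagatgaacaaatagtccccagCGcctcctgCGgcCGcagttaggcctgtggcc
Hoxd10, chr2:74691641-74691890: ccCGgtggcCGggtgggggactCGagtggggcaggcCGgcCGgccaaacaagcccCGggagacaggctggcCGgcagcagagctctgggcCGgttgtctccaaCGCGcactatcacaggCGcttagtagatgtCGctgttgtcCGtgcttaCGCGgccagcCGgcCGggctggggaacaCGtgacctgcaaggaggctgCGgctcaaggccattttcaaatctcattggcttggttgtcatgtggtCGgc
Hoxd12, chr2:74674763-74675012: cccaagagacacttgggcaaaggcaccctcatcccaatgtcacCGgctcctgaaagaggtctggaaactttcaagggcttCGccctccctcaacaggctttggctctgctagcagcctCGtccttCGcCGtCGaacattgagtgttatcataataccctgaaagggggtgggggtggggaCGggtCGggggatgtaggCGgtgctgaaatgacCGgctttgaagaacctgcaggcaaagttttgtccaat
Hoxd13, chr2:74667975-74668224: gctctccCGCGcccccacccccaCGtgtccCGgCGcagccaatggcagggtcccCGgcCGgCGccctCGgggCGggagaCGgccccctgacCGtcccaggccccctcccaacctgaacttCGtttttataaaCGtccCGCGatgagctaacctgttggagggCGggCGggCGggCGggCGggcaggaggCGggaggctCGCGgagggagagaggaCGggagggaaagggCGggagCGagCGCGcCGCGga
CpG density did not run in order along the cluster. The Hoxd13 window held 31 CpG at 74.4% G and C, and 5.19% of the 32851 mouse promoter windows of this length held as many. The Hoxd10 window held 20 (17.9% of windows hold as many), the Hoxd9 window 13 (31.5%) and the Hoxd12 window 10 (37.8%). The median window held 6. The windows at the 2 annotated starts of Hoxd11 held 2 and 20 CpG.

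Short motifs were searched on both strands in these windows and in the 2 of Hoxd11. TTTAT, the core recognised by CDX factors of the posterior body, matched at 2 places in the Hoxd13 window and at 2 in the first Hoxd11 window, and 37.3% of all windows hold it. Both Hoxd13 matches share their letters with matches of TATAAA, the TATA box, whose matches begin 126 and 124 bases before the start. TATAAA is held by 12.4% of all windows. AGGTCA, the half-site bound by retinoic acid receptors, matched once, 69 bases before the Hoxd10 start used here, and 14.0% of windows hold it. CCAAT matched in the windows of Hoxd10, Hoxd12 and Hoxd13, and 33.8% of windows hold it.

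Hoxd9, the most anterior gene of the group, was at 12 somites already near its level at 16 somites in both genotypes. Wild-type embryos read 96.7, 83.2, 103 and 106 CPM at 12 somites and 94.5, 91.6, 112 and 95.6 CPM at 16 somites. Mutants read 105 and 93.3 CPM at 12 somites and 103, 80.6, 79.4, 101 and 110 CPM at 16 somites. These groups overlapped, and the level at 12 somites was 98.7% of that at 16 somites in wild type and 105% in mutants. At 13 somites wild-type embryos lay between 90.8 and 104 CPM and mutants at 118 and 95.8 CPM. At 14 somites wild-type embryos lay between 75.4 and 123 CPM, the lowest being embryo 4 with the highest scaling factor. Mutants at 14 somites read 133 and 111 CPM, above all mutants at 12 and at 16 somites.

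Hoxd10, which with its neighbours patterns the lumbosacral spinal cord and hindlimb, was expressed in every embryo at 12 somites and rose with somite number in both genotypes. Wild-type embryos read 30.8, 30.2, 29.1 and 25.5 CPM at 12 somites, and 34.8, 43.3, 35.1 and 34.7 CPM at 13. They read 44.3, 45.0, 40.1 and 30.6 CPM at 14 somites and 53.2, 65.6, 71.2 and 61.3 CPM at 16. Every wild-type embryo at 16 somites lay above every one at 12, 13 and 14 somites. The mutants read 17.3 and 23.6 CPM at 12 somites, both below all wild-type embryos. They read 34.3 and 30.0 CPM at 13 somites, 47.6 and 38.0 CPM at 14, and 65.4, 58.7, 50.4, 67.0 and 66.7 CPM at 16. From 14 somites on the mutants lay among or above the wild-type embryos in CPM, apart from 1 mutant at 16 somites. In TPM mutant 2 at 14 somites (22.5) lay below the lowest wild-type embryo (24.0). At 16 somites mutants 1, 2 and 3 (28.2, 29.4 and 26.0 TPM) lay below the lowest wild-type embryo (31.3). From 12 to 16 somites the mean increased 2.17-fold in wild type and 3.01-fold in mutants.

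Hoxd11, which acts with its HoxA and HoxC paralogs in the kidney and sacral vertebrae, also rose in both genotypes. Both mutants at 12 somites read below all wild-type embryos. Wild-type embryos read 18.0, 16.3, 17.5 and 13.4 CPM at 12 somites, and 24.8, 26.9, 26.4 and 19.1 CPM at 13. They read 50.8, 26.0, 34.8 and 25.0 CPM at 14 somites and 36.8, 57.5, 46.5 and 48.1 CPM at 16. The embryos at 14 somites overlapped those at 13 and those at 16 somites. Mutants read 7.57 and 5.95 CPM at 12 somites. They read 19.2 and 13.4 CPM at 13 somites, 26.2 and 28.5 CPM at 14, and 24.6, 35.3, 37.8, 51.1 and 57.6 CPM at 16. At 13, 14 and 16 somites the genotypes overlapped in CPM, at 13 somites only by 19.2 against 19.1 CPM. The lowest mutant at 16 somites was embryo 1, the one farthest from its group. The mean was 2.90 times as high at 16 as at 12 somites in wild type and 6.11 times in mutants.

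Hoxd12, a posterior gene best known from the distal limb and genital bud, was at the edge of detection. Wild-type embryos held 0, 2, 4 and 5 reads at 12 somites, 8, 10, 6 and 7 at 13, 9, 13, 11 and 14 at 14, and 29, 19, 10 and 22 at 16. Mutants held 1 and 2 reads at 12 somites, 9 and 3 at 13, 5 and 9 at 14, and 15, 20, 21, 24 and 19 at 16. A count of at least 10 was reached by 0, 1, 3 and 4 of the 4 wild-type embryos at 12, 13, 14 and 16 somites. It was reached by 0 of 2 mutants at each of 12, 13 and 14 somites and by 5 of 5 at 16. At least 1 read was present in 26 of 27 embryos, and the 0 in wild-type embryo 1 at 12 somites allows up to 0.124 CPM, the worth of 3 reads. The stage at which Hoxd12 counts as present thus depends on the count set as the limit.

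Hoxd13, the terminal gene, needed for the genital tubercle, hindgut outlet and digits, was present in every embryo at 12 somites and was lowest in the youngest mutants. Wild-type embryos read 10.2, 7.73, 7.48 and 9.61 CPM at 12 somites, and 12.1, 13.4, 11.7 and 10.1 CPM at 13. They read 13.1, 12.2, 12.7 and 10.8 CPM at 14 somites and 14.6, 16.7, 10.2 and 14.8 CPM at 16. Wild-type embryos at 13, 14 and 16 somites overlapped. Mutants read 4.12 and 3.64 CPM at 12 somites, 8.79 and 7.25 CPM at 13, and 8.79 and 9.99 CPM at 14. At each of these stages both mutants lay below all 4 wild-type embryos. At 16 somites mutants read 16.3, 14.1, 11.5, 13.3 and 15.8 CPM, and the genotypes overlapped.

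**Figure D1:**
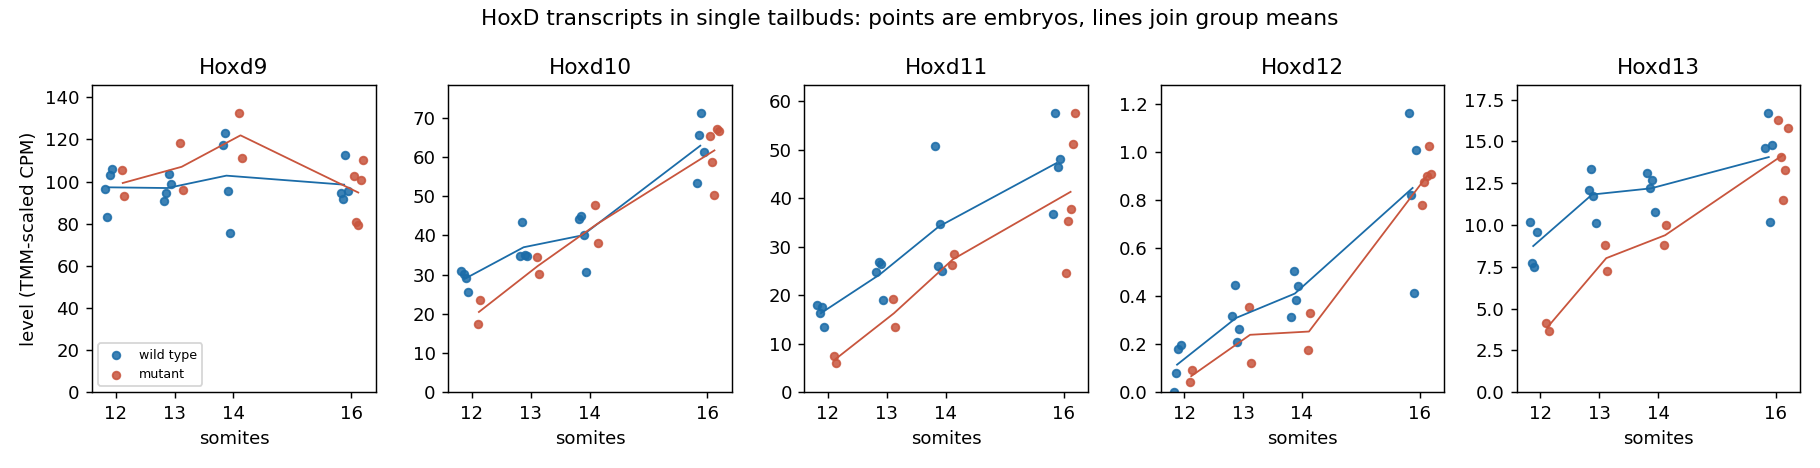
Level of each transcript (CPM, TMM-scaled, vertical axis from 0) against somite number, 1 point per embryo, wild type and mutant side by side, with lines joining group means and an axis of its own for each transcript. Hoxd9 overlaps between 12 and 16 somites, and Hoxd10 and Hoxd11 climb in both genotypes. Hoxd12 is highest at 16 somites (up to 1.16 CPM in wild type). The mutants of Hoxd13 lie below wild type at 12, 13 and 14 somites and among them at 16.

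How much of the 16-somite level was present at 12 somites followed position from Hoxd9 to Hoxd12, with Hoxd13 out of this order. The level at 12 somites, as a share of that at 16, was 98.7% for Hoxd9, 46.0% for Hoxd10, 34.5% for Hoxd11 and 13.5% for Hoxd12 in wild type. The Hoxd12 share rests on 0, 2, 4 and 5 reads at 12 somites, of which the lowest 2 are under the worth of 3 reads. The share was 62.2% for Hoxd13, above its 3 neighbours. In mutants the shares were 33.2% for Hoxd10, 16.4% for Hoxd11 and 27.3% for Hoxd13. The mutant mean of Hoxd12 at 12 somites rests on 3 reads or fewer per embryo and is given no share. All 16-somite embryos lay above all 12-somite embryos for 4 of the 5 transcripts, all but Hoxd9, in each genotype. The same held for 1.63% of all 45394 transcripts tested in wild type and 4.45% in mutants. For wild-type Hoxd13 this rested on 10.159 CPM (embryo 3 at 16 somites) against 10.155 CPM (embryo 1 at 12). In TPM that pair was reversed, at 4.25 and 4.54.

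The trend with somite number was fitted as a slope in log2 units of level per somite, with edgeR's quasi-likelihood test over all 27 embryos and Benjamini-Hochberg adjustment over the 45394 transcripts tested. On simulated data these slope tests made more false calls than their threshold allows. In wild type 2 of the 5 transcripts had an adjusted p under 0.05, as had 0.0242% of all transcripts. Hoxd10 rose by 0.27 ± 0.032 (SE) per somite with an edgeR adjusted p of 0.000374, the smallest p in the table. Hoxd11 rose by 0.38 ± 0.064 with an edgeR adjusted p of 0.0161. The slope was 0.64 ± 0.15 for Hoxd12 (edgeR adjusted p 0.334), 0.15 ± 0.044 for Hoxd13 (0.675) and 0.01 ± 0.033 for Hoxd9 (1). The median slope was 0.27 for the 5 and 0.00094 for all transcripts.

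In mutants 3 of the 5 passed, as did 0.0507% of all transcripts. Hoxd10 rose by 0.36 ± 0.038 per somite (edgeR adjusted p 1.59e-05), Hoxd11 by 0.56 ± 0.077 (0.000621) and Hoxd13 by 0.39 ± 0.051 (0.000312). The slope was 0.80 ± 0.17 for Hoxd12 (edgeR adjusted p 0.128) and -0.04 ± 0.038 for Hoxd9 (0.861). The median was 0.39 for the 5 and 0.00089 for all. The call on wild-type Hoxd11 was lost when any 1 of 6 wild-type embryos was left out, with adjusted p of 0.0578 to 0.151: embryos 2, 3 and 4 at 12 somites and embryos 2, 3 and 4 at 16. The slope in these 6 fits was 0.35 to 0.39. Without the 16-somite embryos no slope was called, for the 5 or for any of the 43328 transcripts tested there. Most slopes of the 5 were larger in this fit on 18 embryos. There the mutant slope was 0.53 for Hoxd10, 1.00 for Hoxd11 and 0.63 for Hoxd13, and the wild-type slope 0.24, 0.54 and 0.24.

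**Figure D2:**
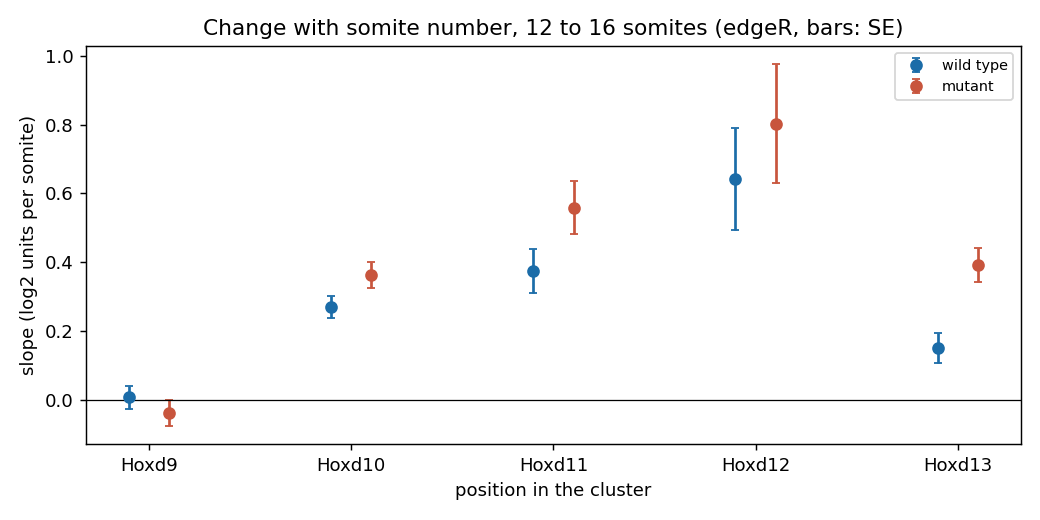
Slope of level with somite number (log2 units per somite, vertical axis) for the 5 transcripts in cluster order, wild type and mutant side by side; bars are standard errors. In this fit the slopes go up from Hoxd9 to Hoxd12, from 0.01 to 0.64 in wild type, and are lower at Hoxd13 (0.15 in wild type, 0.39 in mutants); on log2 TPM Hoxd12 lies below Hoxd10 and Hoxd11, at 0.14 in wild type and 0.15 in mutants.

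The difference between the genotypes' slopes was then tested directly. Mutant minus wild type was 0.24 ± 0.067 log2 units per somite for Hoxd13 (p 0.00128, edgeR adjusted p 0.680). It was 0.18 ± 0.10 for Hoxd11, 0.09 ± 0.050 for Hoxd10, 0.16 ± 0.22 for Hoxd12 and -0.05 ± 0.050 for Hoxd9. The edgeR test called 0 of the 5 and 0% of all transcripts, with 2080 at an unadjusted p under 0.05; DESeq2 called 29 of all, and none of the 5. A different trend in the mutants is thus not shown for any of them.

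Over all stages, with stage as a factor, the mutant minus wild-type difference was -0.43 ± 0.12 log2 units for Hoxd13 (p 0.00175, edgeR adjusted p 0.373). It was -0.51 ± 0.15 for Hoxd11 (p 0.00261, edgeR adjusted p 0.402), -0.33 ± 0.34 for Hoxd12, -0.13 ± 0.084 for Hoxd10 and 0.07 ± 0.075 for Hoxd9. The edgeR test called 0 of the 5 over all stages and 0.0154% of all transcripts. At an unadjusted edgeR p under 0.05 were 2 of the 5 and 3462 of the 45394 transcripts tested. DESeq2 and limma also called none of the 5 in this comparison. In a tailbud sampled in bulk, fewer cells expressing a gene and less RNA per cell cannot be told apart.

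At 12 to 14 somites, where the 3 stage differences were averaged in 1 fit of the 8 groups, Hoxd13 was lower in mutants, with a difference of -0.70 ± 0.11 log2 units (edgeR adjusted p 0.0179). It was the only one of the 5 called, against 0.0154% of all transcripts, all of those lower in mutants. Hoxd11 differed by -0.72 ± 0.17 (p 0.000377, edgeR adjusted p 0.349), Hoxd12 by -0.60 ± 0.46, Hoxd10 by -0.20 ± 0.096 (0.811) and Hoxd9 by 0.14 ± 0.096. The median difference was -0.60 for the 5 and -0.053 for all transcripts. The Hoxd13 call was lost without mutant embryo 2 at 12 somites (adjusted p 0.0576), mutant embryo 2 at 13 somites (0.0980) or mutant embryo 1 at 14 somites (0.0833), and with no filter on low counts (0.145). The difference was -0.68, -0.65, -0.68 and -0.70 in these fits. Fitted on the 18 embryos of these stages alone, Hoxd13 differed by -0.68 with an edgeR adjusted p of 0.529. That fit called none of the 43328 transcripts tested.

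Stage by stage, the difference was nearer 0 at each later stage for Hoxd13 and Hoxd11. For Hoxd13 it was -1.17 ± 0.20 log2 units at 12 somites, -0.56 ± 0.19 at 13 and -0.38 ± 0.19 at 14. For Hoxd11 it was -1.27 ± 0.31, -0.58 ± 0.29 and -0.32 ± 0.29 at the same stages. For Hoxd10 it was -0.50 ± 0.17, -0.20 ± 0.17 and 0.10 ± 0.16, and for Hoxd9 0.03 ± 0.17, 0.14 ± 0.17 and 0.25 ± 0.16. For Hoxd12, on few reads, it was -0.74 ± 0.84, -0.36 ± 0.76 and -0.69 ± 0.77, with no such order. These 1-stage values were added after the data were seen, rest on 2 mutants each, and none was called by edgeR. At 12 somites DESeq2 called Hoxd13 (adjusted p 1.59e-05) and Hoxd11 (0.00714), and limma on log2 TPM called Hoxd13 (0.0295). Among all 45394 transcripts tested, DESeq2 called 298 at this stage and limma on log2 TPM 12. With 1 embryo left out the Hoxd11 values ran from -1.45 to -1.10 at 12 somites, -0.88 to -0.33 at 13 and -0.45 to -0.063 at 14. Those of Hoxd13 ran from -1.26 to -1.09, -0.72 to -0.42 and -0.49 to -0.29, and that of Hoxd10 at 12 somites from -0.74 to -0.29. The value of Hoxd10 at 14 somites turned to -0.0231 without the 2 embryos named above and to -0.0075 on log2 TPM. Whether the differences changed between the stages was tested only through the slopes above.

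Both mutants lay below all 4 wild-type embryos at 12 somites for Hoxd10, Hoxd11 and Hoxd13, as for 6.09% of all transcripts. At 13 somites this held for Hoxd10 and Hoxd13 (5.9% of all) and at 14 somites for Hoxd13 alone (4.01%). These orders are in CPM, and some depend on the scaling. Hoxd10 at 13 somites was separated by 34.3 against 34.7 CPM, but overlapped in TPM, at 20.3 against 20.2. Both Hoxd11 mutants at 13 somites (19.2 and 12.3 TPM) lay below the lowest wild-type embryo in TPM (19.9). Hoxd13 was the only one of the 5 for which it held at all 3 stages, as for 0.0551% of all transcripts.

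At 16 somites, the stage with 5 mutants, no difference was detected. Mutant minus wild type was 0.01 ± 0.15 log2 units for Hoxd13, with a 95% interval of -0.27 to 0.30. It was -0.19 ± 0.22 for Hoxd11, -0.03 ± 0.13 for Hoxd10, 0.08 ± 0.57 for Hoxd12 and -0.06 ± 0.13 for Hoxd9. The edgeR test called 0 of the 5, with 0 at an unadjusted p under 0.05, and 0% of all transcripts, with 2784 at an unadjusted p under 0.05. DESeq2 called 253 of all transcripts and limma with voom weights 1, and neither called any of the 5.

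**Figure D3:**
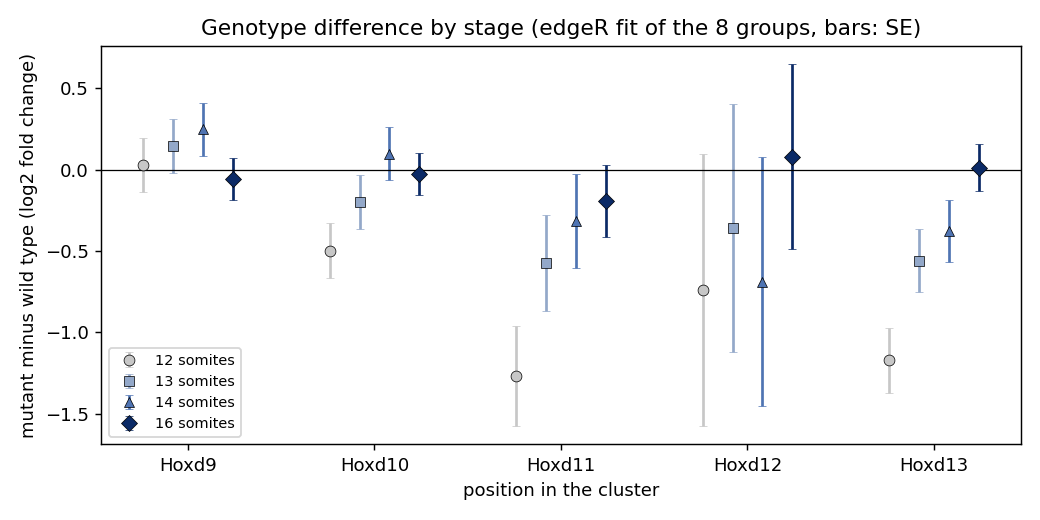
Mutant minus wild-type difference (log2 units, vertical axis) at each stage for the 5 transcripts; bars are standard errors from the edgeR fit of the 8 groups. Hoxd13 and Hoxd11 lie lowest at 12 somites, at -1.17 and -1.27, and Hoxd13 is at 0.01 at 16 somites.

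Along the cluster the levels did not form an even gradient. Each level is that of a single transcript and not a gene sum, and reads of Hoxd10 and Hoxd11 were divided with others by estimation. Mean TPM over the 27 embryos was 46.4 for Hoxd9, 24.5 for Hoxd10, 29.1 for Hoxd11, 0.167 for Hoxd12 and 4.68 for Hoxd13. Within embryos Hoxd9 was above Hoxd10 in 27 of 27, by 0.98 ± 0.55 (SD) on the log2 TPM scale. Over all embryos Hoxd10 minus Hoxd11 was -0.12 ± 0.42, and Hoxd10 was the higher in 10 of 27, but the order differed between groups. In wild type the 2 did not differ beyond their spread at 12 somites (0.03 ± 0.090), and Hoxd11 was the higher in 4 of 4 embryos at 16 (-0.37 ± 0.19). In mutants Hoxd10 was the higher in 2 of 2 embryos at 12 somites (0.82 ± 0.52) and in 1 of 5 at 16 (-0.20 ± 0.43). Hoxd11 was above Hoxd12 in 27 of 27 embryos, by 7.62 ± 0.73 in the 26 with any Hoxd12 read. Hoxd12 was below its neighbour Hoxd13 in all 27, with a difference of -5.08 ± 0.84 in those 26. Hoxd12, the fourth by position, was thus the lowest by level.

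**Figure D4:**
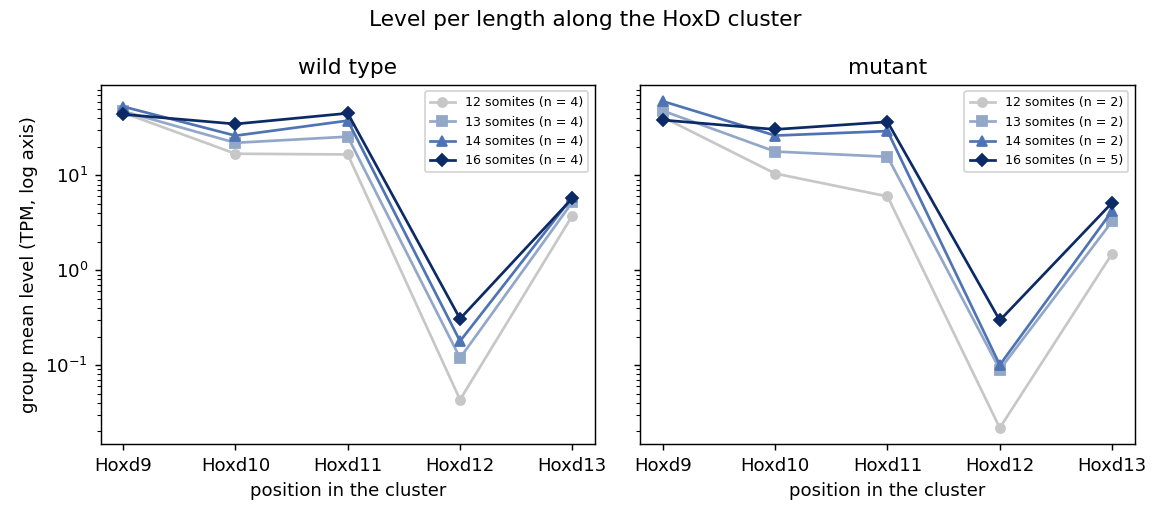
Group mean TPM of the 5 transcripts (log axis) in cluster order, with a line for each stage and a panel for each genotype. Hoxd12 is the lowest in every line, and Hoxd9, Hoxd10 and Hoxd11 are spread most in mutants at 12 somites, at 41.1, 10.5 and 6.01 TPM, with Hoxd13 there at 1.49 TPM.

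The make-up of the summed level differed between 12 and 16 somites, as a description with no test. Hoxd9 made up 55.1 ± 4.14% (SD, n = 4) of the summed TPM of the 5 transcripts in wild-type embryos at 12 somites and 33.9 ± 3.56% (n = 4) at 16. In mutants it made up 69.3 ± 3.10% (n = 2) at 12 somites and 34.8 ± 3.58% (n = 5) at 16. Hoxd11 made up 20.0% in wild type at 12 somites and 34.7% at 16, and 10.1% and 32.3% in mutants. By TPM at 16 somites in wild type, the Hoxd11 transcript (45.2 ± 6.58) stood level with that of Hoxd9 (44.0 ± 5.82). The Hoxd11 level rests on reads divided by estimation. The sum was 83.2, 100.5, 123 and 130.1 TPM in wild type at 12, 13, 14 and 16 somites and 59.1, 84.9, 120.4 and 111 TPM in mutants. On the TPM scale the median transcript was itself lower in mutants, by -0.15 log2 units at 12 somites, -0.090 at 13, -0.069 at 14 and -0.15 at 16, against 0.0025, 0.010, 0.036 and -0.035 in CPM.

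Levels across the 27 embryos were compared as a description, since the points share stages, libraries and depth. On log2 CPM Hoxd10 and Hoxd11 had a Pearson r of 0.882, Hoxd11 and Hoxd13 of 0.872 and Hoxd10 and Hoxd13 of 0.802. Hoxd9 had r between -0.065 and 0.072 with these 3. Among the 24397 transcripts compared, Hoxd11 was the fifth closest to Hoxd10 and to Hoxd13. The closest to Hoxd10 was ENSMUST00000001699.7 (r 0.975), and the closest to Hoxd13 was ENSMUST00000048026.9 (r 0.917).

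With the mean of each group of genotype and stage removed, no pair of the 5 passed the test of co-variation between embryos. Of 10 pairs the strongest was Hoxd9 with Hoxd10 over 27 embryos, with Pearson r of 0.561 (permutation p 0.0167, adjusted 0.167). Its Spearman rho was 0.548 (permutation p 0.0110, adjusted 0.110), and r was 0.387 without the 2 embryos farthest from the median. The p-values were adjusted over the 10 pairs. Hoxd10 and Hoxd11 had r of 0.346 on log2 CPM.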

How the data were processed

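RNA of 27 tailbuds was analysed, grouped by genotype and somite number from the sample titles. The authors deposited 1 table per library which, per the file headers, gives for each transcript a length, an estimated count and a TPM value scaled by effective length; the submitters' processing notes name Salmon 1.5.2 and Trim Galore 0.5.0 and the build mm10, with no annotation release. Reads matching several transcripts are divided by estimation.

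Estimated counts were rounded and tested in R 4.3.3 with edgeR 4.0.16 (TMM scaling, filterByExpr on the 8 groups, quasi-likelihood tests). The filter kept 45394 of the 89010 transcripts with any count, the 5 HoxD transcripts included, and p-values were adjusted over all of them (Benjamini-Hochberg, threshold 0.05). Standard errors came from the size of each change and its F statistic. Group values are means with SD. Log2 CPM used a prior count of 2, log2 TPM in limma a pseudocount of 0.5, and co-variation 100000 permutations within groups. Alternatives were other scalings and filters, DESeq2 1.42.0, limma 3.58.1, other treatments of stage and single embryos left out. Tests were tried on simulated data, where the slope tests made more false calls than their threshold allows.

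All 5 transcripts are named. The members and gene lists were chosen with earlier results of these data known. The gene lists, cell type markers, sums of transcripts to genes and the level of Jarid2 were not run, because no table at hand pairs transcript identifiers with symbols. Nothing in the labels says whether embryos came from separate litters, so p-values measure only the spread between embryos. Python 3.11.15 with matplotlib 3.10.9 made the figures.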

Additional observations from a re-analysis of the deposited data

Results flagged for a closer look

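Wild-type embryo 2 at 13 somites read 43.3 CPM for Hoxd10, and the other 3 embryos of its group read 34.7 to 35.1 CPM. Its gap to the nearest of them was large for the range of the group. Of 25 comparisons of an embryo with its group, 1 was set apart in this way, and chance gives 1 in 20, or 1.25. The slope of Hoxd10 was called in both genotypes with each of the 27 embryos left out in turn.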

How the results depend on the processing

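Numbers of transcripts called moved with the method, and the causes were not tested. For the genotype effect over all stages, 7 in the edgeR fit, the number was 3 with no filter, 27 with a mean CPM of at least 1, 1 with a replicate block, 189 with DESeq2, 42 with limma voom, 47 with limma on log2 TPM, 0 without 16 somites, 4 with somite number as a number, 15 with no stage term and 32 without the 2 embryos that stood apart. At 12 to 14 somites, 7 in the edgeR fit, it was 3 with no filter, 3 with the replicate block, 438 with DESeq2, 18 with voom, 20 with log2 TPM and 17 without the 2 embryos. At 16 somites it was 0, and 253 with DESeq2 and 1 with voom. The wild-type slope called 11, and 41 with DESeq2, 26 with voom and 0 without 16 somites. The mutant slope called 23, and 10 with the replicate block, 185 with DESeq2 and 0 without 16 somites. The difference of slopes called 0, and 29 with DESeq2. Leaving out 1 embryo gave 1 to 25 over all stages, 7 to 30 at 12 to 14 somites, 0 to 1 at 16, 4 to 12 and 12 to 28 for the slopes, and 0 to 1 for their difference.

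Calls on the 5 transcripts also moved. The slope of Hoxd12 was called by DESeq2 (adjusted p 2.34e-05 in wild type and 1.13e-05 in mutants). Voom called it too (0.0202 and 0.0446), as did limma on log2 TPM (0.015 and 0.00978). In mutants edgeR called it without wild-type embryo 1 at 12 somites (0.00776). Of all 45394 transcripts DESeq2 called 41 in wild type and 185 in mutants, voom 26 and 23, and limma on log2 TPM 10 and 19. The pseudocount of 0.5 TPM is above every Hoxd12 level and makes its log2 TPM slopes smaller, at 0.14 and 0.15 against 0.64 and 0.80; Hoxd10 had 0.25 and 0.33 and Hoxd11 0.34 and 0.52 on that scale. Without 16 somites the mutant slope of Hoxd12 (0.88) was below that of Hoxd11 (1.00). DESeq2 also called Hoxd11 at 12 to 14 somites (0.00538). The adjusted p of Hoxd13 at 12 to 14 somites ran from 3.87e-07 with DESeq2 to 0.145 with no filter. On log2 TPM the wild-type slope of Hoxd11 lost its call (0.168).

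Some directions reversed. Over all stages Hoxd9 was -0.0672 on log2 TPM, and with no stage term Hoxd10 was 0.11 and Hoxd12 0.27. The wild-type slope of Hoxd9 was -0.0131 on log2 TPM, and -0.00763 to 0.018 with 1 embryo left out. Without 16 somites the mutant slope of Hoxd9 was 0.14, and the difference of slopes 0.10 for Hoxd9 and -0.00399 for Hoxd12. At 16 somites Hoxd13 was -0.0273 with the replicate block, -0.02515 with voom, -0.13 on log2 TPM and -0.0247 without the 2 embryos, and Hoxd12 -0.0108 on log2 TPM. With 1 embryo left out the values at 16 somites ran from -0.11 to 0.0206 for Hoxd9, -0.10 to 0.04 for Hoxd10, -0.14 to 0.27 for Hoxd12 and -0.11 to 0.11 for Hoxd13.

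At single stages Hoxd12 at 12 somites went from -0.74 to 0.0208 with voom and at 13 ran from -1.31 to 0.21 with 1 embryo left out. Hoxd9 at 12 somites went from 0.03 to -0.17 on log2 TPM, and ran from -0.054 to 0.12 with 1 embryo left out, and from -0.035 to 0.29 at 13. Hoxd10 at 14 somites ran from -0.081 to 0.23.

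Detection of Hoxd12 moved from 13 embryos with at least 10 reads to 26 with at least 1. Co-variation on log2 TPM was 0.601 for Hoxd10 with Hoxd11 and 0.453 for Hoxd11 with Hoxd13, and that of Hoxd12 with Hoxd13 ran from -0.0094 to 0.403 with 1 embryo left out. Over 10 pairs of same-numbered wild-type and mutant embryos, r of the deviations from their group means was -0.0681 to 0.027. In mutant groups of 2 these deviations mirror each other, so the check cannot exclude a pairing by embryo number. The replicate block changed no call on the 5 transcripts. Sums of transcripts to genes were not run. Depth limits Hoxd12, at 0 to 29 reads per embryo.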

Other observations

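Stages and genotypes can also be set side by side across 1 somite, as values with no test. Mutants at 13 somites averaged 16.3 CPM for Hoxd11, and wild-type embryos at 12 somites also 16.3 CPM. For Hoxd13 these groups averaged 8.02 ± 1.09 (SD, n = 2) and 8.74 ± 1.34 CPM (SD, n = 4), and for Hoxd10 32.2 ± 3.06 and 28.9 ± 2.38 CPM. Mutants at 14 somites averaged 27.4 CPM for Hoxd11 and wild-type embryos at 13 somites 24.3 CPM. For Hoxd13 the same groups stood at 9.39 ± 0.850 and 11.8 ± 1.33 CPM, and for Hoxd10 at 42.8 ± 6.78 and 36.9 ± 4.24 CPM. Hoxd9 averaged 107 and 97.3 CPM in the first of these comparisons and 122 and 96.9 CPM in the second. Hoxd12, on few reads, averaged 0.239 and 0.115 CPM in the first and 0.252 and 0.309 CPM in the second. The pairs were picked after their values were seen.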
